A study of Mus musculus with 8 samples.

Results

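The genes described here are 10 transcription factors that direct blood progenitors into the myeloid lineages: Irf8, Spi1, Cebpa, Cebpb, Cebpd, Cebpe, Gfi1, Id2, Zeb2 and Myb. They were taken by gene symbol from a count table of 13708 genes, where all 10 were found, and all 10 passed the filter on low counts. The RNA came from LSK cells of mouse bone marrow, which lack lineage antigens, carry both Sca-1 and c-Kit, and include blood stem cells and multipotent progenitors. The db/db group held 4 libraries from mice homozygous for the mutated leptin receptor, strain B6.BKS(D)-Leprdb/J, which become obese and diabetic. The db/m group held 4 libraries from heterozygous mice of strain B6.BKS(D)-Leprdb/+, so these comparison mice also carried 1 mutated copy. Both groups were labelled as taken 6 months after diabetes, with no treatment and no age given. The genotype label set the groups, since the titles of all 8 samples bear the db/m name. Whether each library came from its own mouse is not labelled, so p-values reflect only how far these samples spread, which may be technical.

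Myeloid cells arise through a small circuit of factors that activate and oppose each other. Spi1 encodes PU.1, the Ets factor that opens myeloid enhancers, and Cebpa encodes C/EBPα, which is needed to form granulocyte-monocyte progenitors. Irf8 works with PU.1 to direct progenitors to monocytes and dendritic cells, and the repressor Gfi1 and C/EBPε (Cebpe) act on the granulocyte side. C/EBPβ and C/EBPδ (Cebpb and Cebpd) serve myeloid output under stress and inflammation, Id2 blocks E proteins, Zeb2 is a zinc finger repressor, and Myb maintains progenitors. In LSK cells such genes are known to be transcribed before commitment, a state called lineage priming.

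The libraries held between 27640853 and 42806327 counts each, and levels are given as CPM, depth-scaled counts after TMM (trimmed mean of M-values) correction. Lepr, the mutated gene, had only 3 to 74 counts per library and averaged 1.20 ± 0.995 CPM in db/db and 0.671 ± 0.481 CPM in db/m (SD, n = 4 each). Since the db mutation alters splicing, a count over the whole gene does not check the genotype labels. Of the antigens that define the sort, Kit (c-Kit) averaged 812 ± 216 CPM in db/db and 658 ± 101 CPM in db/m. Ly6a (Sca-1) averaged 131 ± 36.1 CPM in db/db and 466 ± 115 CPM in db/m, with an adjusted p of 0.0445 by edgeR. Its log2 fold change of -1.83 stayed negative in all 19 alternatives (-2.03 to -1.28), and it passed the adjusted threshold in 10 of them and in 2 of the 8 fits that left out 1 library. Of the lineage antigens that the sort removes, the T cell antigen Cd3e averaged 0.747 ± 0.563 CPM in db/db and 4.27 ± 1.84 CPM in db/m, and Ly6g was not analysed here. Reads mapped between genes made up 6.03, 5.15, 9.64 and 11.9% of uniquely mapped reads in db/db libraries 1 to 4, against 26.3, 26.5, 12.2 and 23.4% in db/m libraries 1 to 4. That difference had an exact two-sided permutation p of 0.0286, the smallest that 4 against 4 samples allow, and its part in the results below was not tested.

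No member passed an adjusted p of 0.05 over all genes by edgeR's quasi-likelihood test, in a comparison that called 5 of 13708 genes (0.0365%, and 0.0219% as lower in db/db). At an unadjusted p under 0.05, 3 of the 10 members were lower in db/db (Irf8, Spi1 and Cebpa) and 0 were higher. Over all genes, 15.3% had such a p, 7.54% with lower and 7.78% with higher values in db/db. Log2 fold changes, given throughout as db/db over db/m, were negative for 8 members and positive for Id2 and Zeb2, while 48.6% of all genes had a negative one. The median log2 fold change was -0.38 over the members and 0.01 over all genes. Irf8 and Spi1 were the 2 members whose 4 db/db libraries all lay below all 4 db/m libraries; 9.03% of all genes had groups that did not overlap, 4.53% with db/db lower and 4.5% with db/db higher.

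**Figure D1:**
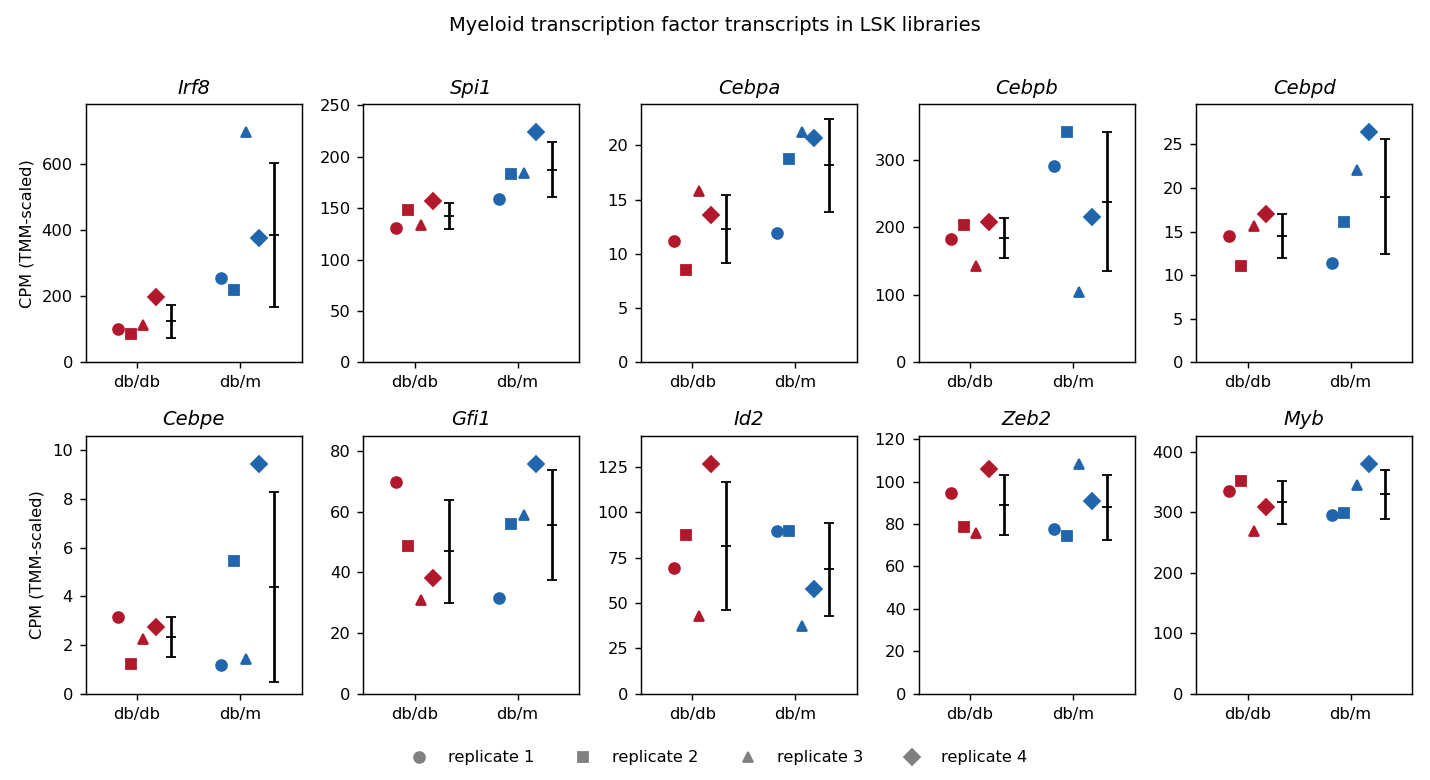
CPM of the 10 members (vertical axes, linear from 0) in each of the 8 libraries, db/db left of db/m, with 1 symbol per library and bars for the mean ± SD of each group. The Irf8 and Spi1 points of the groups do not overlap, and those of the other 8 members do.

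Irf8 had the largest fold difference among the members. It had 99.8, 85.7, 111 and 198 CPM in db/db libraries 1 to 4, against 254, 218, 695 and 376 CPM in db/m libraries 1 to 4. Every db/db value was below every db/m value, and db/m library 3 stood highest by a wide margin. The means were 124 ± 50.4 CPM in db/db and 386 ± 217 CPM in db/m (SD, n = 4 each), and the fitted ratio was 0.320. Its log2 fold change was -1.64 ± 0.39 (SE), with a 95% interval of -2.50 to -0.78. The unadjusted p was 0.00172 and the adjusted p 0.101 by edgeR's quasi-likelihood test, at rank 231 of all genes. In a bulk sample, fewer cells that transcribe a gene and less RNA of it per cell cannot be told apart.

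The call for Irf8 depended on the test. In the authors' deposited table it had an FDR of 0.00296 and was the 1 member under 0.05, where 4.28% of all genes were, 2.2% with lower values in db/db. DESeq2 gave it an adjusted p of 0.0261, where 5.64% of the 13433 genes with an adjusted p passed. When each library was left out in turn, its log2 fold change stayed between -1.97 (without db/db library 4) and -1.20 (without db/m library 3). Adjusted p-values in these fits were 0.0774 to 0.238 by edgeR.

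Irf8 lies on chromosome 8 from 120736358 to 120756692 on the plus strand of mm10, with 3433 exon bases in 10 exon blocks. Promoter sequences (RefSeq, GRCm38.p6, 250 bases before to 50 after the start) were matched for 7 of the 10 members, and Spi1, Cebpd and Cebpe were not matched. The 2 printed here are those of the members with an unadjusted p under 0.05 that had a match. Capitals mark the matches, on either strand, to TTCNNNGAA (the GAS element, bound by STAT factors) and to TATAAA (the TATA box). Coordinates are chr8:120736108-120736407 for Irf8 and chr7:35119043-35119342 for Cebpa, both on the plus strand.
Irf8: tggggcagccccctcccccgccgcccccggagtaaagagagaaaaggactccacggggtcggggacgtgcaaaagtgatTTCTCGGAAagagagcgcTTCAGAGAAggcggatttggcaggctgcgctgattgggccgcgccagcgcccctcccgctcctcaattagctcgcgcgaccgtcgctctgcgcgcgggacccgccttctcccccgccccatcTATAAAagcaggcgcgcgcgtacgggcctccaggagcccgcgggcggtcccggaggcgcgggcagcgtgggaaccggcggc
Cebpa: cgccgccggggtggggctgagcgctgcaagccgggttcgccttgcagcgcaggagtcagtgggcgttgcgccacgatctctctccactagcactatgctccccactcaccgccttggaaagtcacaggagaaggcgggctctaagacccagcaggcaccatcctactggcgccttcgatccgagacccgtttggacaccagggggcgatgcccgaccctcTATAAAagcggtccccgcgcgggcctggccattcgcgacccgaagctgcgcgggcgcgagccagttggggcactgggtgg

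The Irf8 window held 2 GAS matches, TTCTCGGAA starting at base -171 and TTCAGAGAA at base -153 from the start, and a TATAAA at base -31. Of all 32851 windows of the same length, 8.30% held a GAS match and 13.6% held TATAAA. Cebpa had TATAAA at base -30, and Cebpb had it at base 22 inside the transcript. The other motifs searched were TTGCNNAA (C/EBP), GAGGAAG (PU.1), AACNGTT (Myb) and CAGCTG (an E-box), held by 10.8, 13.6, 4.45 and 16.3% of all windows. TTGCNNAA occurred in the Gfi1 window at base -143, CAGCTG in the Id2 window at base -196, and GAGGAAG in the Zeb2 window at base -16, where TTCTGTGAA also matched the GAS element at base -147. The Myb window held no match to any of the 6 motifs. These are matches of letters, and no binding was measured. The share of G and C over the 7 windows ran from 52.7% in Zeb2 to 80.7% in Cebpb, with 70.0% in Irf8 and 67.3% in Cebpa, against a median of 52.7% over all windows.

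Spi1, the partner of Irf8, had a narrower but tighter difference. It had 130.3, 148, 134 and 157 CPM in db/db libraries 1 to 4, against 159, 183, 184 and 224 CPM in db/m libraries 1 to 4. The groups did not overlap, though db/db library 4 and db/m library 1 differed by little. Means were 142 ± 12.5 CPM in db/db and 188 ± 27.0 CPM in db/m (SD, n = 4 each). The log2 fold change was -0.40 ± 0.13 (SE), with a 95% interval of -0.68 to -0.12, an unadjusted p of 0.0101 and an adjusted p of 0.175 by edgeR. Leaving out each library in turn gave -0.47 to -0.30 for Spi1. Its spread within a group was the smallest of the members in db/db, with a coefficient of variation of 8.77% in db/db and 14.4% in db/m, against 40.8% in db/db and 56.3% in db/m for Irf8. Spi1 lies on chromosome 2 from 91096797 to 91115756 on the plus strand of mm10, with 5 exon blocks.

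Among the C/EBP factors, which bind DNA as dimers through a basic leucine zipper, all 4 had negative log2 fold changes and none passed the adjusted threshold. Cebpa is a gene without introns on chromosome 7 from 35119293 to 35121931 (mm10, plus strand). It had 11.2, 8.54, 15.8 and 13.6 CPM in db/db libraries 1 to 4, against 11.9, 18.8, 21.2 and 20.7 CPM in db/m libraries 1 to 4. The groups overlapped through db/m library 1, which lay among the db/db values. Means were 12.3 ± 3.14 CPM in db/db and 18.2 ± 4.28 CPM in db/m. The log2 fold change was -0.56 ± 0.25 (SE), with a 95% interval of -1.12 to -0.0053, an unadjusted p of 0.0482 and an adjusted p of 0.323 by edgeR. With each library left out in turn, the unadjusted edgeR p of Cebpa ran from 0.0122 to 0.124 and was under 0.05 in 2 of 8 fits.

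Cebpb, also without introns (chromosome 2, 167688915 to 167690432, mm10), had 182, 203, 142 and 208 CPM in db/db libraries 1 to 4, against 290.2, 341, 104 and 215 CPM in db/m libraries 1 to 4. Library 3 of db/m was the lowest of all 8 and the other 3 db/m libraries were the highest. The log2 fold change was -0.37 ± 0.30 (SE), with a 95% interval of -1.05 to 0.31 and an adjusted p of 0.612 by edgeR. Leaving out each library in turn gave Cebpb values of -0.63 to -0.15. The first was without db/m library 3, where the unadjusted edgeR p was 0.0063 and the adjusted edgeR p 0.140. The groups did not overlap in that fit, which had to follow, since the other 3 db/m libraries were the highest. The unadjusted edgeR p of Cebpb was 0.252 with all 8 libraries, and under 0.05 in 1 of the 8 omissions. Set against db/m library 3 alone, the lowest for Cebpb, the db/db libraries gave a log2 fold change of 0.82.

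Cebpd had 14.4, 11.1, 15.6 and 17.0 CPM in db/db libraries 1 to 4, against 11.5, 16.1, 22.1 and 26.4 CPM in db/m libraries 1 to 4. The groups overlapped, with the 2 highest values in db/m libraries 3 and 4. Its log2 fold change was -0.39 ± 0.26 (SE), with a 95% interval of -0.98 to 0.20 and an adjusted p of 0.526 by edgeR. Leaving out each library in turn gave Cebpd values of -0.57 (without db/m library 1) to -0.19 (without db/m library 4). Cebpd lies on chromosome 16 from 15887286 to 15889545, and its exons overlap those of Spidr, so reads there could belong to either gene.

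Cebpe, the factor of late granulocyte maturation, had the fewest reads, with 41 to 120 counts per library in db/db and 37 to 305 in db/m. It had 3.17, 1.25, 2.26 and 2.73 CPM in db/db libraries 1 to 4, against 1.20, 5.45, 1.44 and 9.45 CPM in db/m libraries 1 to 4. Libraries 2 and 4 of db/m stood above all others, while db/m libraries 1 and 3 lay within or below the db/db range. The coefficient of variation was 35.1% in db/db and 88.9% in db/m. The log2 fold change was -0.90 ± 0.64 (SE), with a 95% interval of -2.33 to 0.54 and an adjusted p of 0.550 by edgeR. Leaving out each library in turn gave Cebpe values of -1.21 (without db/m library 1) to -0.19 (without db/m library 4). Cebpe lies on chromosome 14 from 54710363 to 54712174 on the minus strand of mm10.

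Gfi1, the repressor that opposes the monocyte programme, had 69.8, 48.6, 31.0 and 38.1 CPM in db/db libraries 1 to 4, against 31.7, 55.9, 58.8 and 75.8 CPM in db/m libraries 1 to 4. Both groups spanned much the same range. The log2 fold change was -0.24 ± 0.29 (SE), with a 95% interval of -0.90 to 0.41 and an adjusted p of 0.748 by edgeR. Leaving out each library in turn gave Gfi1 values of -0.50 (without db/db library 1) to -0.06 (without db/m library 4). Gfi1 lies on chromosome 5 from 107716655 to 107725805 (mm10, minus strand).

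Id2, whose protein holds E proteins off DNA, had 69.5, 87.5, 42.8 and 127 CPM in db/db libraries 1 to 4, against 89.7, 89.7, 37.4 and 57.6 CPM in db/m libraries 1 to 4. The highest value was in db/db library 4 and the lowest in db/m library 3. Its log2 fold change was 0.25 ± 0.35 (SE), with a 95% interval of -0.53 to 1.03 and an adjusted p of 0.785 by edgeR. Id2 lies on chromosome 12 from 25093799 to 25096092.

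Zeb2 and Myb had the log2 fold changes nearest 0. Zeb2 had 94.5, 78.6, 75.9 and 106 CPM in db/db libraries 1 to 4, against 77.8, 74.5, 108 and 90.8 CPM in db/m libraries 1 to 4, with a log2 fold change of 0.01 ± 0.16 (SE) and a 95% interval of -0.33 to 0.36. Myb had 335, 353, 269.7 and 309 CPM in db/db libraries 1 to 4, against 295, 298, 345 and 381 CPM in db/m libraries 1 to 4, with a log2 fold change of -0.06 ± 0.13 (SE) and a 95% interval of -0.35 to 0.23. Adjusted edgeR p-values were 0.983 for Zeb2 and 0.871 for Myb, and the groups of both overlapped over most of their range. Zeb2 lies on chromosome 2 from 44983512 to 45113279 (mm10, minus strand), and its exons overlap the antisense gene Zeb2os. Since sense and antisense exonic reads took near-equal shares in every library (31.0 to 41.0% and 31.7 to 41.8%), reads of Zeb2 and Zeb2os cannot be told apart. Myb lies on chromosome 10 from 21124930 to 21160984, with 16 exon blocks.

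**Figure D2:**
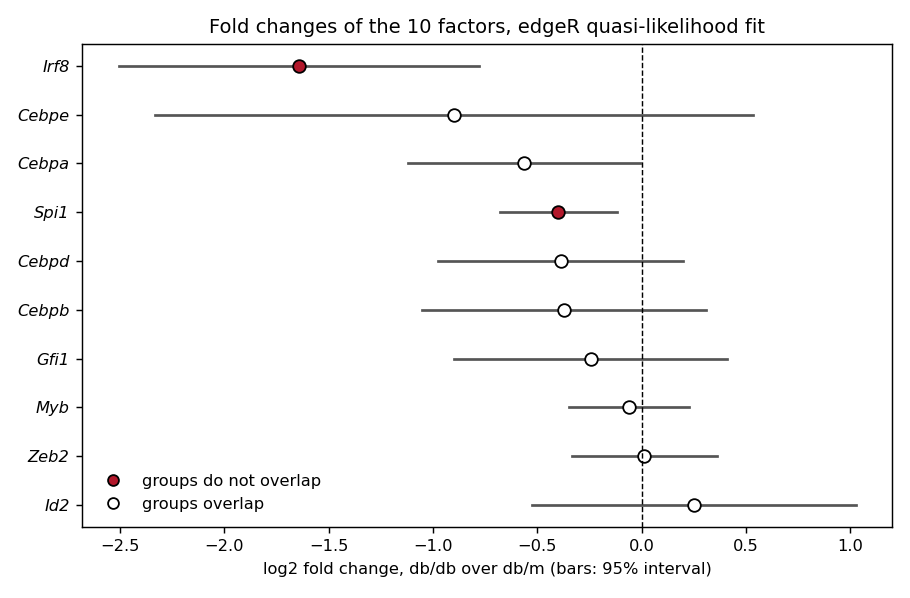
Log2 fold change of each member, db/db over db/m, with its 95% interval from edgeR's quasi-likelihood fit (4 libraries per group). The intervals of Irf8 (-2.50 to -0.78), Spi1 and Cebpa lie below 0, and the intervals of the other 7 members include 0.

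Levels of different genes were compared per length, as CPM per kilobase of exon averaged over the 8 libraries. Cebpb stood highest at 139, followed by Spi1 at 124, Myb at 85.6, Irf8 at 74.2 and Id2 at 59.0 CPM per kilobase. Gfi1 had 16.5, Zeb2 9.44, Cebpd 7.42, Cebpa 5.77 and Cebpe 2.72 CPM per kilobase. The first 5 lay between the 88.2 and 96.1 percentiles of all genes, and Cebpe at the 25.6 percentile. Neighbours in this order mostly had overlapping ranges, and Id2 and Gfi1 were the 1 neighbouring pair whose ranges over the 8 libraries were apart.

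Within single libraries the order was steadier in the lower part. Spi1 exceeded Myb, Id2 exceeded Gfi1, Gfi1 exceeded Zeb2, Cebpd exceeded Cebpa and Cebpa exceeded Cebpe in all 8 libraries, and Zeb2 exceeded Cebpd in 7. Cebpb was above Spi1 in 5 of the 8. The place of Irf8 was not the same in every library, which was not tested. Myb exceeded it in all 4 db/db libraries and in 2 of the 4 db/m libraries. Irf8 exceeded Id2 in 0 of the 4 db/db and 3 of the 4 db/m libraries. Its mean level per length was 36.0 in db/db and 112 CPM per kilobase in db/m, while that of Id2 was 64.2 in db/db and 53.9 in db/m.

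**Figure D3:**
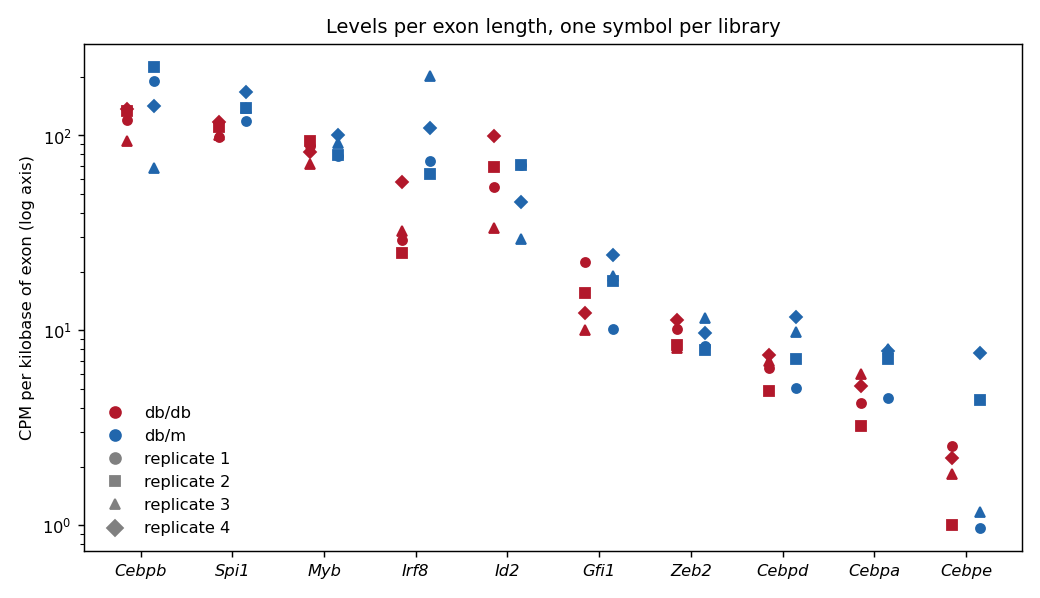
CPM per kilobase of exon for each member on a log axis, in order of the mean over 8 libraries, with each db/db and db/m library as a point. Cebpb (mean 139) and Spi1 (124) lead, and Cebpe (2.72) is lowest; the Irf8 points reach from below Id2 in db/db to above Spi1 in 1 db/m library.

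Ratios between members within a library do not depend on its depth, and they are given as a description with no test. Irf8 over Gfi1, the monocyte over the granulocyte factor, was 1.29, 1.597, 3.25 and 4.69 per length in db/db libraries 1 to 4, against 7.24, 3.53, 10.7 and 4.49 in db/m libraries 1 to 4. Irf8 over Cebpa was 6.83, 7.71, 5.41 and 11.2 in db/db, against 16.3, 8.94, 25.2 and 14.0 in db/m. Irf8 over its partner Spi1 was 0.30, 0.22, 0.32 and 0.49 in db/db, against 0.62, 0.46, 1.47 and 0.65 in db/m. In each of these 3 ratios the highest db/db library, library 4, lay above the lowest db/m library, library 2, so the groups overlapped.

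Ratios without Irf8 differed less. Spi1 over Cebpa was 23.0, 34.3, 16.7 and 22.9 in db/db libraries 1 to 4, against 26.4, 19.3, 17.1 and 21.4 in db/m libraries 1 to 4. Cebpb over Cebpa was 28.2, 41.2, 15.6 and 26.6 in db/db, against 42.3, 31.5, 8.51 and 18.1 in db/m. The db/m values of both ratios overlapped the db/db values over most of their range.

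The genes whose pattern over the 8 libraries was most like that of each member were found by Pearson correlation of log2 CPM with about 11161 other genes, as a description that also carries the difference between groups. Among the genes most like Irf8 were Kmo (r = 0.983), an enzyme of tryptophan breakdown, and Bin1 (0.978), which bends membranes. Their own log2 fold changes were -1.78 for Kmo and -0.68 for Bin1. Cebpe was most like Pglyrp1 (0.953), Tmem216 (0.950) and Elane (0.943), and of these Pglyrp1 and Elane encode granule proteins.

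For the other members the nearest genes had similar correlations. Spi1 was nearest to Zmat5 (0.968), Suds3 (0.964) and Txndc12 (0.960), and Cebpa to Utp3 (0.985), Mrpl46 (0.979) and Ppp1ca (0.966). Cebpb was nearest to Bmf (0.983), Cdc42bpb (0.978) and Utp14b (0.966), and Cebpd to Psmd10 (0.995), Dcps (0.980) and Gemin8 (0.975). Among the genes nearest to Gfi1 were Hsd3b7 (0.964) and Proser3 (0.957). Id2 was nearest to Ndfip1 (0.978), Zfp869 (0.959) and Xpr1 (0.940). Zeb2 was nearest to Tbc1d7 (0.927), Tlr12 (0.922) and Adcy7 (0.913), and Myb to Eef2k (0.955), Tctex1d2 (0.940) and Tmem175 (0.933). All these correlations share the 8 libraries and the difference between the groups, and none was tested.

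Genes of the monocyte and dendritic programme, on which Irf8 and PU.1 act, were read from the same fit. Of 18 listed genes, 7 were lower in db/db at an unadjusted p under 0.05, 0 were higher and 0 passed the adjusted threshold. The shares of all genes at such a p were 7.54% lower and 7.78% higher, and the list was not tested against them. Log2 fold changes were negative for 14 and positive for 4 (Klf4 1.10, Cd68 0.78, Fcgr3 0.50 and Csf1r 0.07), with a median of -0.45. Ly6c2, the monocyte surface antigen, had 160.4, 80.4, 103 and 178 CPM in db/db libraries 1 to 4, against 537, 882, 327 and 709 CPM in db/m libraries 1 to 4. The groups did not overlap, and the log2 fold change was -2.23 with an adjusted p of 0.0740 by edgeR. Cd74, the MHC class II chaperone, averaged 1191 ± 402 CPM in db/db and 2573 ± 1192 CPM in db/m (adjusted edgeR p 0.208). Cst3, a protease inhibitor abundant in dendritic cells, averaged 299.0 ± 71.4 CPM in db/db and 412 ± 46.9 CPM in db/m (adjusted edgeR p 0.239). Ccr2, the chemokine receptor of monocytes, averaged 9.47 ± 2.33 CPM in db/db and 35.8 ± 40.4 CPM in db/m (adjusted edgeR p 0.215), and its db/m mean rested on library 3, at 95.05 CPM.

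Of 18 genes of the granulocyte programme, 5 were lower in db/db at an unadjusted p under 0.05, 0 were higher and 0 passed the adjusted threshold. At such a p, 7.54% of all genes were lower and 7.78% higher. The median log2 fold change of the list was -0.69. Csf3r, the receptor for granulocyte colony-stimulating factor, had 209, 223, 129.5 and 155 CPM in db/db libraries 1 to 4, against 254, 359, 270.3 and 302 CPM in db/m libraries 1 to 4. These groups did not overlap (log2 fold change -0.73, adjusted edgeR p 0.116). Fut4, which makes the Lewis x antigen, averaged 12.4 ± 3.64 CPM in db/db and 22.1 ± 2.52 CPM in db/m, with an adjusted edgeR p of 0.128. Prtn3 (proteinase 3) averaged 217 ± 36.7 CPM in db/db and 453 ± 238 CPM in db/m (adjusted edgeR p 0.186). Calr, a chaperone of the endoplasmic reticulum, averaged 998 ± 150.3 CPM in db/db and 1395 ± 321 CPM in db/m (adjusted edgeR p 0.251). The fifth was Il6ra, the interleukin-6 receptor, at 30.8 ± 3.83 CPM in db/db and 39.1 ± 6.67 CPM in db/m (adjusted edgeR p 0.319). The summed level of the list in db/m had the order of libraries 4, 2, 3 and 1, which was also the order of Cebpe and of Elane. Elane is itself in the list and was among the genes most like Cebpe, so its order is no separate evidence.

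Partners and antagonists of the members had log2 fold changes in both directions, 9 negative and 21 positive, with a median of 0.11. Of 30 such genes, 1 was lower and 3 were higher in db/db at an unadjusted p under 0.05. None passed the adjusted threshold. Among all genes, 7.54% were lower and 7.78% higher at such a p, and the list was not tested against these shares. The lower one was Tcf4 (E2-2), the E protein of plasmacytoid dendritic cells, at 136 ± 17.7 CPM in db/db and 175 ± 13.6 CPM in db/m (adjusted edgeR p 0.193). Higher values were found for Gata2, a stem and mast cell factor that opposes PU.1, at 403 ± 82.1 CPM in db/db and 254 ± 73.0 CPM in db/m (adjusted edgeR p 0.213). Gata1, the erythroid and megakaryocyte factor, averaged 56.9 ± 49.6 CPM in db/db and 22.9 ± 5.50 CPM in db/m (adjusted edgeR p 0.283). Klf1, another erythroid factor, averaged 49.4 ± 54.9 CPM in db/db and 12.7 ± 4.77 CPM in db/m (adjusted edgeR p 0.248). Both Gata1 and Klf1 had their highest value in db/db library 3, which also had the highest erythroid marker sum.

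Of 15 paralogs of the members, 2 were lower and 3 higher in db/db at an unadjusted p under 0.05, and 0 passed the adjusted threshold. By comparison, 7.54% of all genes were lower and 7.78% higher at such a p. Their median log2 fold change was -0.03 for the paralogs, and Mybl1 was not analysed here. Gfi1b, the paralog of Gfi1 that acts in red cells and platelets, had 95.2, 78.2, 138 and 78.7 CPM in db/db libraries 1 to 4, against 46.2, 58.6, 48.8 and 57.0 CPM in db/m libraries 1 to 4. Its groups did not overlap, with db/db higher, a log2 fold change of 0.89 and an adjusted p of 0.0861 by edgeR. Zeb1, the paralog of Zeb2, averaged 37.6 ± 2.38 CPM in db/db and 26.3 ± 3.57 CPM in db/m (log2 fold change 0.52, adjusted edgeR p 0.116). Irf4, a paralog of Irf8 that is high in plasma cells, averaged 22.5 ± 17.3 CPM in db/db and 82.7 ± 46.7 CPM in db/m (adjusted edgeR p 0.158). Spib, the Ets paralog of Spi1 in dendritic and B cells, averaged 2.65 ± 2.52 CPM in db/db and 8.59 ± 3.15 CPM in db/m (adjusted edgeR p 0.240). The third with higher values was Id1, the paralog of Id2, at 78.8 ± 24.5 CPM in db/db and 34.8 ± 18.8 CPM in db/m (adjusted edgeR p 0.269).

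Markers of other cell types that a sort of marrow could hold differed between the libraries as well. For the marker counts that follow, 7.54% of all genes were lower and 7.78% higher in db/db at an unadjusted p under 0.05. None of these markers of other cell types passed the adjusted threshold. Of 8 dendritic cell markers, 4 were lower (Siglech, Bst2, Cd74 and Spib) and 1 was higher (Clec9a) in db/db at an unadjusted p under 0.05. Cd209d was not analysed here. Summed levels were 971 to 1919 CPM in db/db and 1183 to 3698 CPM in db/m. Most of each sum was Cd74, at 881 to 1779 CPM in db/db and 934 to 3544 CPM in db/m. The lowest db/m sum was in library 3, where Siglech and Bst2 were highest, so the sum does not follow these 2 markers. Siglech, specific to plasmacytoid dendritic cells, had 2.85, 0.760, 3.42 and 10.3 CPM in db/db libraries 1 to 4, against 17.4, 6.86, 28.3 and 18.6 CPM in db/m libraries 1 to 4. Bst2, another marker of these cells, had 49.5, 39.8, 40.1 and 53.6 CPM in db/db, against 77.3, 76.1, 91.7 and 72.9 CPM in db/m. Both Siglech and Irf8 were highest in db/m library 3 and lowest in db/db library 2.

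Of 7 plasma cell markers, 7 were lower in db/db at an unadjusted p under 0.05. They summed to 1093 to 5606 CPM in db/db and 3560 to 16458 CPM in db/m. Most of each sum was Jchain, at 977 to 5172 CPM in db/db and 3223 to 15186 CPM in db/m. Within db/m, the plasma cell sum, the intergenic share and the Cebpb level had the same order of libraries (2, 1, 4, 3), while Irf8 had the reverse order (3, 4, 1, 2). Within db/db, Irf8, the plasma cell sum and the intergenic share had the same order (4, 3, 1, 2), and Cebpb had another (4, 2, 1, 3). Of 10 monocyte and macrophage markers, 0 passed an unadjusted p of 0.05, 9 had positive and 1 a negative log2 fold change with a median of 1.11, and they summed to 154 to 3467 CPM in db/db and 675 to 1084 CPM in db/m. Log2 fold changes were 1.20 for Adgre1 (F4/80), 1.17 for C1qa and 1.11 for Vcam1, and db/db library 3 had the lowest sum of all 8. Of 8 neutrophil markers, 0 passed, with sums of 25.5 to 619 CPM in db/db and 53.4 to 454 CPM in db/m.

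Among lymphoid markers, 2 of 6 of B cells (Cd79a and Cd79b) were lower (sums 94.8 to 283 CPM in db/db and 188 to 378 CPM in db/m) and 5 of 7 of T and NK cells (Cd3e, Cd3g, Il7r, Nkg7 and Ncr1) were lower (131 to 170.2 CPM in db/db and 174 to 362 CPM in db/m) at an unadjusted p under 0.05. Pax5 and Eomes were not analysed here, and no lymphoid, erythroid or megakaryocyte marker passed the adjusted threshold. Of 7 erythroid markers 6 were higher, with sums of 1525 to 4123 CPM in db/db and 809 to 1095 CPM in db/m. Of 6 megakaryocyte markers 6 were higher, with sums of 1500.4 to 2381 CPM in db/db and 593 to 1132 CPM in db/m. Cd8a and Gzma had 0 counts in db/db library 3, and every other marker tested had counts in all 8 libraries. The lists share genes and are not separate evidence. Of the 8 neutrophil markers 6 also stand in the granulocyte programme, and Csf1r and Cx3cr1 stand in both the monocyte and dendritic programme and the monocyte markers. Cd74 stands in that programme and among the dendritic markers, Irf7 and Spib among the dendritic markers and the paralogs, Irf4 among plasma cell markers and paralogs, and Klf1 among erythroid markers and partners. The part of these cell types in the levels of Irf8, Spi1 and the other members was not tested.

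**Figure D4:**
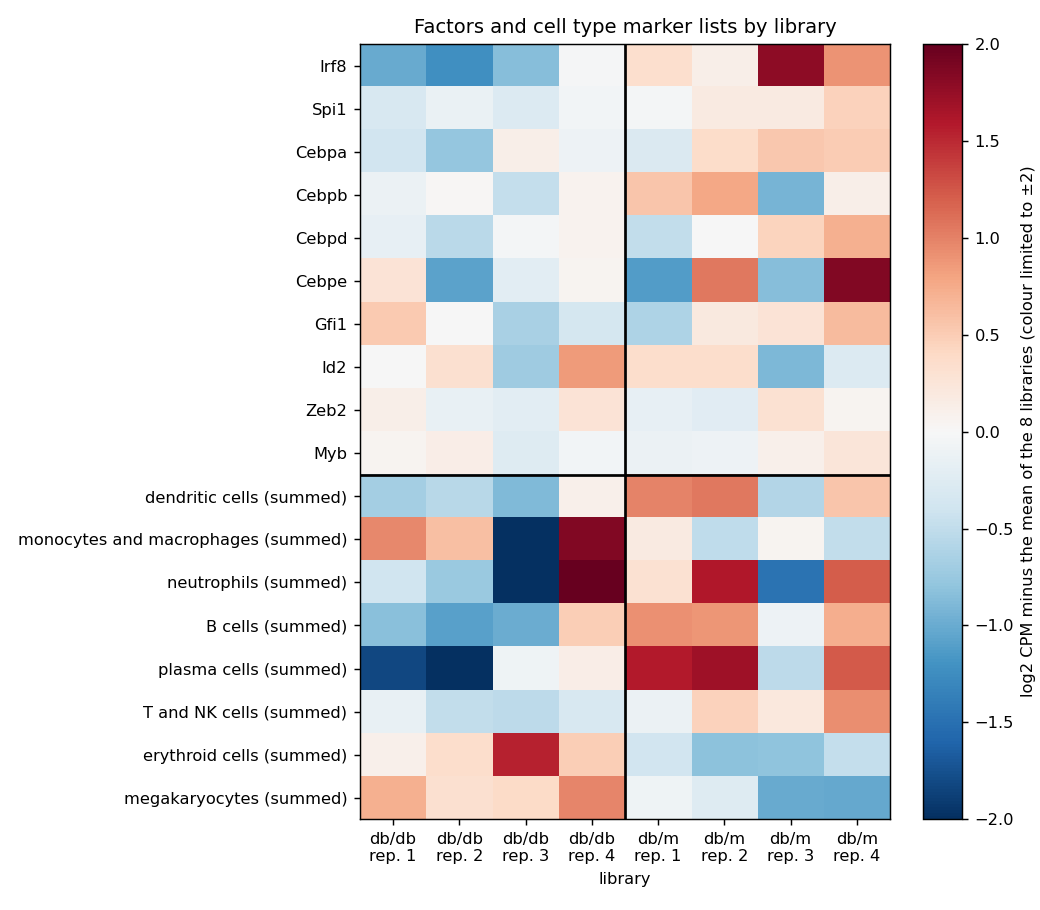
Rows are the 10 members and the summed marker lists of 8 cell types, columns are the libraries, db/db left of db/m, and colour is log2 CPM minus the mean of that row over the 8 libraries. Library 3 of db/m has the highest Irf8 (695 CPM) beside a plasma cell sum (3560 CPM) inside the db/db range. The dendritic sum is mostly Cd74 and the plasma cell sum mostly Jchain.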

How the data were processed

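Per the submitters' processing notes, STAR 2.7.10a mapped the reads to mm10 and featureCounts of Subread 2.0.3 counted them per gene; FastQC 0.11.5 and edgeR 3.40.2 are also named. Annotation and strand setting were not given in the sources used. The authors deposited raw counts for 13708 genes (smallest row total 79), exon lengths, and log2 CPM, log2 fold changes and p-values, which equal those of a likelihood ratio test in edgeR. Intergenic shares, in percent, come from the deposited mapping sheet.

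The counts were fitted in edgeR 4.0.16 under R 4.3.3, with TMM scaling, filterByExpr (0 genes removed), no covariate and the quasi-likelihood test, adjusted over all genes by Benjamini-Hochberg at 0.05. The fit was tested on simulated data, where it called 43% of 100 genes changed 2-fold and 85% of 100 genes changed 4-fold. Of its calls there, 3.76% were false. A gene that was not called may therefore still differ. No pair of libraries agreed within sampling noise. Alternatives were other scalings (RLE, upper quartile), no filter or 1 CPM in 4 libraries, DESeq2 1.42.0, limma-voom 3.58.1 with and without quality weights, the likelihood ratio test, the title prefix as a correlated block and omission of each library. Omission of the 3 db/m libraries with intergenic shares above 20%, and of the library of lowest quality weight in each group, was added after seeing the data. The libraries of lowest weight were db/db library 3 (0.442) and db/m library 3 (0.509).

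Genes named are the members, Lepr, Kit, Ly6a, up to 4 genes of smallest p per described list, the first 3 markers per cell type and the 3 genes most like each member (average log2 CPM of at least 2). Others, namely Clec9a, Il6ra, Id1, Klf4, Cd68, Fcgr3, Csf1r, Cx3cr1, Irf7, Cd79b, Cd3g, Il7r, Ncr1, Cd8a and Gzma, were chosen after their values were seen. Some genes that the rule names are not reported here. The members and lists were chosen with earlier results of these data known.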

Additional observations from a re-analysis of the deposited data

How the results depend on the processing

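Of 13708 genes, 5 were called by edgeR's quasi-likelihood test. DESeq2 called 757 of the 13433 genes to which it gave an adjusted p. The number called was 0 with upper-quartile scaling, 0 with limma-voom and 192 with quality weights. It was 14 with the title prefix as a correlated block and 587 with the likelihood ratio test. It was 195 without the library of lowest quality weight in each group, and 0 to 90 when each library was left out in turn, with 90 without db/m library 3, 46 without db/db library 4 and 2 without db/m library 1. The count of members called was 1 (Irf8) with DESeq2 and with the likelihood ratio test, and 0 to 0 with each library left out. Members with an unadjusted p under 0.05 numbered 2 to 4, and members with groups that did not overlap 2 to 3, when each library was left out. The shares of all genes in those fits are not given. A smaller group also lies clear of the other more often without any real difference, so these counts cannot be compared with those of the main fit. The number without overlap was 7 when the 3 db/m libraries with intergenic shares above 20% were left out, which leaves 1 db/m library. Without any real difference, 1 library lies clear of the 4 db/db libraries more often than 4 libraries do. The share of all genes without overlap is not given for that setting. The 7 therefore cannot be compared with the 2 members of the main fit. The median log2 fold change of the members ran from -0.45 to -0.19 with each library left out.

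Irf8, Spi1, Cebpa, Cebpd and Gfi1 kept a negative log2 fold change in all 19 alternatives, and Irf8 ran from -2.49 to -1.15 over those that did not leave out a single library. Without the 3 db/m libraries, where 1 db/m library remains and the spread comes from db/db alone, the log2 fold change turned to 0.82 for Cebpb, 0.70 for Cebpe and -0.29 for Zeb2. Myb turned to 0.0054 with quality weights and to 0.033 without the libraries of lowest weight. With each library left out, Zeb2 ran from -0.10 to 0.12, Id2 from -0.056 to 0.46 and Myb from -0.11 to 0.017. The cause of these changes was not tested.

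A planned omission of db/m libraries with an intergenic share above that of every db/db library gave no value, because all 4 db/m libraries exceeded 11.9%. Each title prefix occurs in 1 genotype, so a batch by prefix and the genotype cannot be told apart in full. No paired analysis was possible because the labels give no replicate number shared between the groups. Depth limits Cebpe most, with 37 to 305 counts per library.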
